A study of Mus musculus with 16 samples.

Results

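The genes of the NKG2D receptor, its adaptor and its ligands were followed in whole mouse liver. They were taken by symbol from the deposited expression table and comprised 7 of its 25719 genes: Klrk1, Hcst, Raet1d, Raet1e, Ulbp1, H60b and H60c. RNA was sequenced from 16 male mice aged 8 to 12 weeks at the start, each mouse giving 1 library. C57BL6J wild type (WT) mice were fed a normal chow diet (NCD, n = 4) or a steatosis-steatohepatitis diet (SSD, n = 5), and Klrk1-/- mice, whose strain is labelled NKG2D, were fed NCD (n = 4) or SSD (n = 3). The SSD is rich in animal fat, fructose and cholesterol, and feeding lasted 3 weeks. The Klrk1-/- genotype is labelled as a Klrk1 knockout, and which part of the gene is deleted is not given in the sources used here. The labels number the WT mice on NCD 1, 2, 3 and 5 and the other groups from 1 upwards, and values are given in that order. The tables held 19892025 to 28936707 reads on genes per mouse, and 1 read was worth 0.664 to 1.30 normalised read counts. The hepatocyte genes were the most abundant of the marker lists, with summed levels of 1809770 to 3306890 normalised read counts per mouse, and none of the 9 was at 0 in every mouse of a group.

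NKG2D is an activating receptor of NK cells, CD8 T cells and many innate-like T cells, and Klrk1 encodes it. The receptor has no signalling tail of its own and pairs with the adaptor DAP10, encoded by Hcst, or in mice also with DAP12, encoded by Tyrobp. Its mouse ligands are relatives of MHC class I that stressed, infected or transformed cells display: the RAE-1 proteins (here RAE-1 delta from Raet1d and RAE-1 epsilon from Raet1e), MULT1 from Ulbp1, and the H60 proteins from H60b and H60c. In liver the receptor is carried by resident and recruited lymphocytes, while ligands can be made by hepatocytes and by other cells.

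The ligand genes lie on chromosome 10 of the mouse build GRCm39, away from the receptor gene. Raet1d (ENSMUSG00000078452, chr10:22236451-22250038, plus strand) sat wholly inside the annotated span of Raet1e (ENSMUSG00000053219, chr10:22034468-22250038, plus strand), and H60b (ENSMUSG00000075297, chr10:22034485-22164748, plus strand) overlapped the same span. Ulbp1 (ENSMUSG00000079685, chr10:7390362-7423638, minus strand) and H60c (ENSMUSG00000091618, chr10:3206208-3217771, minus strand) had no overlapping gene in the table. Klrk1 (ENSMUSG00000030149) lies at chr6:129587286-129600827 on the minus strand between Klrd1 and Klrc3, other lectin-like receptor genes of the NK gene complex. Hcst (ENSMUSG00000064109) lies at chr7:30117137-30119279 on the minus strand, 126 bases from Tyrobp on the plus strand.

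The 2 RAE-1 genes are close copies, which bears on how far their read counts are separate measurements. Over the coding sequence, 710 of 759 aligned positions were identical (93.5%), with 98.9% in coding exon 1, 86.6% in coding exon 2, 95.8% in coding exon 3 and 98.6% in coding exon 4. Coding exon 3, which differed at 11 of 264 positions, is printed here 5′ to 3′ from the plus strand of GRCm39 to show how little tells the genes apart, with the differing bases in capitals. The Raet1d exon lies at chr10:22247266-22247529 and the Raet1e exon at chr10:22057024-22057287.
Raet1d coding exon 3: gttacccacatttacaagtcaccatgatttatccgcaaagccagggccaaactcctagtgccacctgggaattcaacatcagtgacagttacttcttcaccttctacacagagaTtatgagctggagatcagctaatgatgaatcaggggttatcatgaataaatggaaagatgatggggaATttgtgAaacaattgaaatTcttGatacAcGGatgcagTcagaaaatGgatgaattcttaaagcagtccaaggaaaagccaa
Raet1e coding exon 3: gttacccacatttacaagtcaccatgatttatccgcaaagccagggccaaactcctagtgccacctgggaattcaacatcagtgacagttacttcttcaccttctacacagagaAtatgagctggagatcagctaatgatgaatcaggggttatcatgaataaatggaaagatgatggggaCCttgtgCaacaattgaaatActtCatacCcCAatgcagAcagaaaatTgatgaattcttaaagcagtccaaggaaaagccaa

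In the GENCODE M39 annotation of the transcripts that the table lists, 363 bases of exon at chr10:22249676-22250038 belonged to both Raet1d and Raet1e, which is 17.1% of the exon bases of Raet1d and 13.7% of those of Raet1e. The counting used the earlier release M26, whose exons were not compared. Reads were 100 bases long, and 23.7% of the 100-base windows of Raet1d transcripts occurred letter for letter in Raet1e transcripts, against 19.9% in the other direction. Whether reads from shared sequence were dropped or counted is not given in the sources used here. The values of Raet1d and Raet1e are therefore given side by side and not as independent evidence for each other.

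The start region of Raet1d closely matched the nearer start region of Raet1e, but not the other. RefSeq promoter windows of GRCm38.p6 were found for 6 of the 7 members, H60b having none. Over the 250 bases before the start, the Raet1d window (chr10:22361644-22361893) and the Raet1e window nearer to it (chr10:22173247-22173496) were identical at 245 of 252 aligned positions (97.2%), while the other Raet1e window, chr10:22158319-22158568, matched Raet1d at 46.2%. These windows are printed 5′ to 3′ because the 2 genes moved together in the results, and capitals mark every match, on either strand, to a fixed set of motifs.
Raet1d promoter: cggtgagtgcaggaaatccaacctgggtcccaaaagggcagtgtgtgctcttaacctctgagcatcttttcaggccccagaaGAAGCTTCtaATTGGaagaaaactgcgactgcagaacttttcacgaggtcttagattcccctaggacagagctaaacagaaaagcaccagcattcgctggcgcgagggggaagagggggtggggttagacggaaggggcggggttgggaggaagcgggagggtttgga
Raet1e promoter: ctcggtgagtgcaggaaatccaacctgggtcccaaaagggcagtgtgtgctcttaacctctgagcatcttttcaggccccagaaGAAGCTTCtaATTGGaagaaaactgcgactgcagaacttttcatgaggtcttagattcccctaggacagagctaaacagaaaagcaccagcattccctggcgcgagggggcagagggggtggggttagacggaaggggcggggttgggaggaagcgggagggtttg

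Both windows held a heat shock element (GAANNTTC), which occurred in 6.69% of the 32851 promoter windows of the same length, and a CCAAT box (CCAAT), which occurred in 33.8%. The 2 matches did not overlap each other. The other motifs searched were the AP-1 site TGANTCA (6.75% of all windows), the cAMP response element TGACGTCA (1.55%), the E2F sites TTTGGCGC (0.417%) and TTTCCCGC (0.895%) and the TATA box TATAAA (12.4%), and neither RAE-1 window held any of them. Among the other members, Hcst held the heat shock element and Klrk1 and Ulbp1 held the CCAAT box. These are matches of letters only.

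Levels of different genes were compared as normalised read counts per kilobase of the transcript length given in the table. In WT mice on NCD the order was Raet1d at 180 ± 102 (SD, n = 4), Raet1e at 119 ± 65.6, Hcst at 28.6 ± 11.1, Klrk1 at 13.3 ± 2.21, Ulbp1 at 3.96 ± 2.20 and H60b at 1.29 ± 1.18 per kilobase. Of these neighbours, Raet1d and Raet1e overlapped over the 4 mice, as did Ulbp1 and H60b, whereas Raet1e lay above Hcst, Hcst above Klrk1 and Klrk1 above Ulbp1 in their full ranges. The order was different in Klrk1-/- mice on SSD, where Raet1d at 27.0 ± 3.65 (SD, n = 3), Hcst at 21.9 ± 12.0 and Raet1e at 21.5 ± 6.76 per kilobase overlapped. Tyrobp, the alternative adaptor, stood far above all members at 492 ± 69.7 per kilobase in WT mice on NCD, and myeloid cells also express it.

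**Figure D1:**
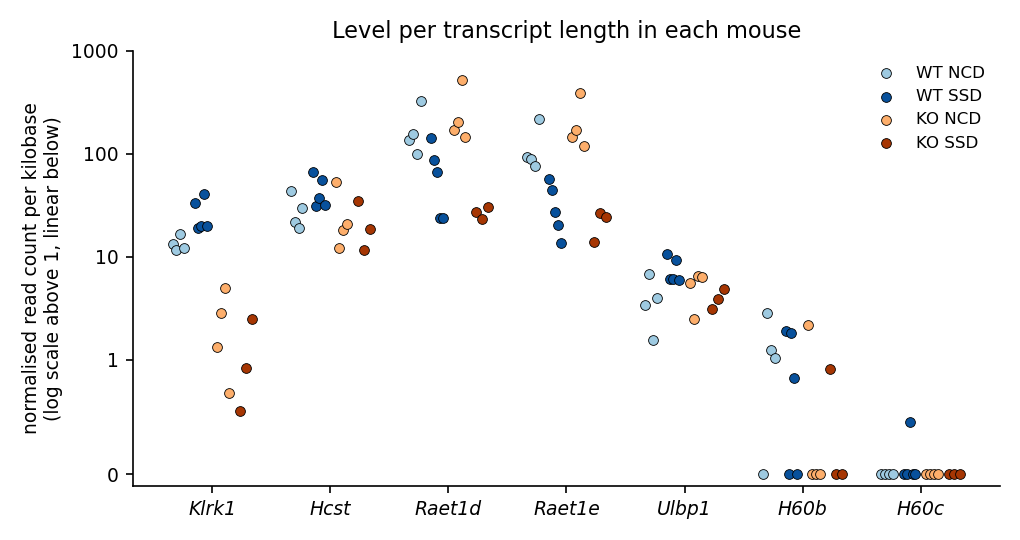
Normalised read counts per kilobase of transcript for each of the 7 member genes; every point is 1 mouse, coloured by genotype and diet, and the axis is logarithmic above 1 and linear below. Raet1d and Raet1e are the highest members in WT mice on NCD at 180 and 119 per kilobase on average, and H60c is at 0 in all mice but 1.

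H60b and H60c were at the limit of what this depth could show. H60b had 5 reads over the 4 WT mice on NCD, 6 over the 5 WT mice on SSD, 2 over the 4 Klrk1-/- mice on NCD and 1 over the 3 Klrk1-/- mice on SSD. H60c had 1 read in 1 WT mouse on SSD and none elsewhere. With 0 of 91546528 reads in WT mice on NCD, H60c could be present at up to 0.0328 RPM (reads scaled to library depth), taking 3 reads as the limit and covering counting error only. Neither gene reached the minimum mean of 10 normalised read counts for testing, and a difference between groups was not detectable at this depth.

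Klrk1 was examined first because it checks the genotype labels. WT mice had 22.9, 20.1, 28.7 and 21.0 normalised read counts on NCD and 57.8, 32.9, 34.3, 71.1 and 34.3 on SSD. Klrk1-/- mice had 2.30, 4.98, 8.71 and 1.23 on NCD and 0.966, 1.61 and 4.29 on SSD. Every Klrk1-/- mouse lay below every WT mouse, so the labels and the receptor transcript went together, and the remaining signal rested on 14 reads over the 4 mice on NCD and 8 over the 3 mice on SSD.

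The receptor transcript was lower in Klrk1-/- mice by 20.2 times on SSD and 5.39 times on NCD as a ratio of group means. These ratios became 35.8 without Klrk1-/- mouse 3 on SSD and 8.17 without Klrk1-/- mouse 3 on NCD. On the scale of log2(normalised read count + 1), which understates the change of low genes, the difference was -3.90 on SSD (SE 0.41, limma adjusted p = 0.00165) and -2.40 on NCD (SE 0.46, limma adjusted p = 0.00724). Both held in all 19 alternative analyses run for each diet in which Klrk1 could be tested. Klrk1 was the only member of the 5 tested that passed in either comparison, where 2.9% of all genes tested passed on SSD and 13.1% on NCD.

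The receptor transcript rose on SSD in WT mice. All 5 mice on SSD lay above all 4 on NCD, with group means of 46.1 ± 17.4 (SD) against 23.2 ± 3.85 and a ratio of 1.99. The log2 difference was 0.90 (95% interval 0.32 to 1.49, limma adjusted p = 0.0226), and the exact two-sided permutation test gave p = 0.0159, the smallest possible with these group sizes. The call was lost without WT mouse 2 on NCD (limma adjusted p = 0.0556), without WT mouse 5 on NCD (0.0520) or without WT mouse 4 on SSD (0.0538). It was also lost with quantile normalisation (log2 0.53, limma adjusted p = 0.123), with all 4 groups in 1 model (0.0917) and with the replicate number as a block, a fit that also leaves out WT mouse 4 on SSD (log2 0.73 with and without the block, limma adjusted p = 0.0967 with it). The rise thus passed in 14 of 20 alternatives, and its direction was kept in all 20. In whole liver, more cells that carry a transcript and more of it per cell cannot be told apart.

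**Figure D2:**
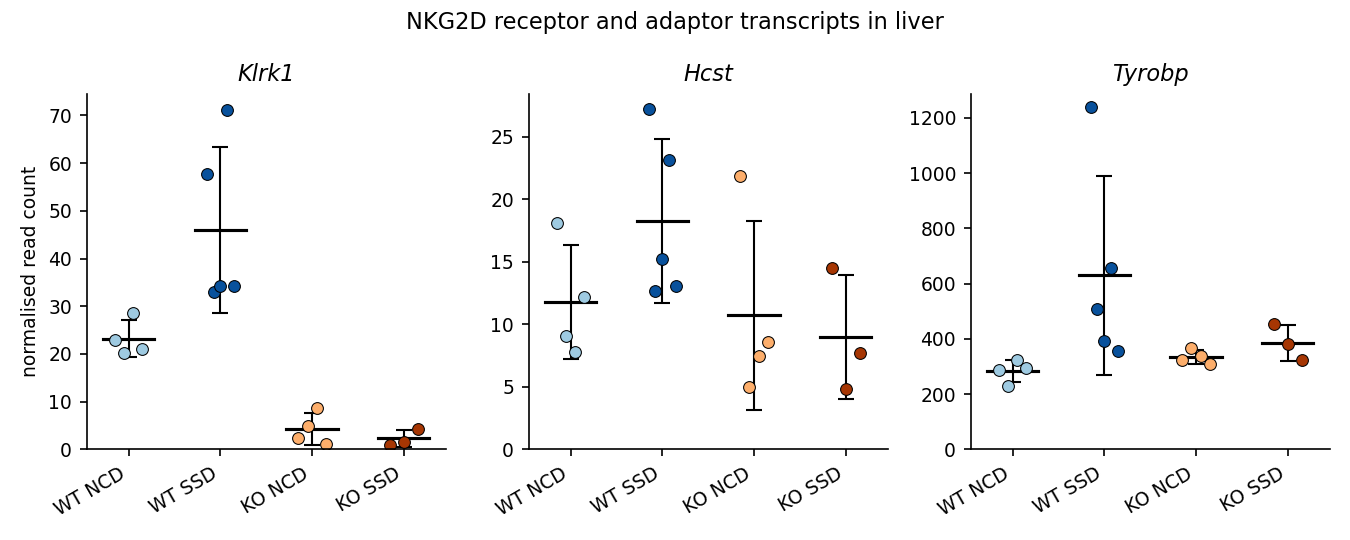
Normalised read counts of Klrk1 (receptor), Hcst (DAP10) and Tyrobp (DAP12) in each mouse by genotype and diet; points are mice, horizontal lines are group means and bars are 1 SD. Klrk1 on SSD lies above NCD in WT mice (46.1 against 23.2 on average) and near 0 in Klrk1-/- mice, and the highest Tyrobp value is 1238 in WT mouse 1 on SSD.

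Lymphocyte markers were set beside the Klrk1 rise. The summed level of 13 NK cell markers was 94.1 to 125 normalised read counts in WT mice on NCD and 128 to 264 on SSD, with no overlap, and none of the 13 was at 0 in every mouse of a group. Of its 4 members tested none passed with limma, edgeR or DESeq2 (1 at unadjusted p under 0.05), where 34.9% of all genes tested passed with limma. The log2 differences of the 4 ran from -0.40 to 1.08 with a median of 0.52, and 3 of them lay above 0. The 4 included Nkg7 at a log2 difference of 0.60 (limma adjusted p = 0.108) and Il2rb at 0.45 (limma adjusted p = 0.131). Il2rb made up a large part of the sum in WT mice. Its means were 50.1 on NCD and 70.8 on SSD, beside median sums of 112 and 161. With every mouse scaled to the same total, 2 of the 4 passed as higher, where 53.7% of all genes tested passed. The summed level of 15 T cell markers was 213 to 231 on NCD and 150.4 to 263 on SSD. Cd4, the largest single term of that sum on NCD, fell from 102 ± 2.62 to 23.9 ± 6.44 (log2 difference -2.09, limma adjusted p = 2.62e-05), and Trac, the T cell receptor alpha constant gene, rose by 0.99 (limma adjusted p = 0.0398).

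Relative to those markers the Klrk1 difference depended on the denominator, a comparison chosen after the values were seen. Klrk1 per 100 counts of the 28 T and NK cell markers was 5.92 to 8.63 on NCD and 9.63 to 17.3 on SSD in WT mice (exact two-sided permutation test, p = 0.0159). Without Cd4 in the sum it was 8.52 to 12.5 on NCD and 10.6 to 18.4 on SSD (exact two-sided permutation test, p = 0.127), and per 100 counts of the NK cell markers alone it was 16.1 to 26.5 and 21.3 to 34.9 (exact two-sided permutation test, p = 0.238). The groups overlapped in both of the latter.

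Hcst, the DAP10 gene, was low and variable in every group. WT mice had 18.1, 9.06, 7.82 and 12.1 normalised read counts on NCD and 27.2, 12.7, 15.2, 23.1 and 13.1 on SSD. Klrk1-/- mice had 21.8, 4.98, 7.46 and 8.61 on NCD and 14.5, 4.82 and 7.71 on SSD. The groups overlapped in all 4 comparisons, and Hcst passed in none of the 3 in which it reached the minimum mean. Its log2 difference between diets in WT mice was 0.59 (95% interval -0.17 to 1.35, limma adjusted p = 0.207), and between genotypes on SSD it was -0.998 (95% interval -1.91 to -0.09, limma adjusted p = 0.186).

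Tyrobp, its neighbour and the DAP12 gene, did rise on SSD in WT mice. It had 288, 229, 325 and 296 normalised read counts on NCD and 1238, 509, 391, 655 and 355 on SSD in WT mice. All mice on SSD lay above those on NCD, and the log2 difference was 0.999 (SE 0.30, limma adjusted p = 0.0217). In Klrk1-/- mice it was 308 to 367 on NCD and 323 to 453 on SSD, with a log2 difference of 0.20 (95% interval -0.07 to 0.46, limma adjusted p = 0.251), which passed when every mouse was scaled to the same total (log2 0.45, limma adjusted p = 0.0127). With that scaling the median over all genes tested in Klrk1-/- mice was 0.25. The difference between the 2 diet effects did not pass (log2 -0.80, limma adjusted p = 0.290). The summed level of 18 macrophage and monocyte markers in WT mice was 7220 to 8732 on NCD and 9007 to 23417 on SSD, and 12 of the 18 passed as higher and none as lower, where 34.9% of all genes tested passed. In Klrk1-/- mice it was 6597 to 7945 on NCD and 7990.5 to 9729 on SSD, and 5 of the 18 passed as higher and none as lower, where 29.4% of all genes tested passed. With every mouse scaled to the same total, 17 of the 18 passed as higher in WT mice, where 53.7% of all genes tested passed. In Klrk1-/- mice 15 then passed as higher, where 43.6% of all genes tested passed. The part of macrophage content in the Tyrobp values was not tested.

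The RAE-1 genes fell on SSD in both genotypes, and Ulbp1 had a higher mean on SSD in WT mice without passing. In WT mice 3 of the 5 members tested passed (Klrk1, Raet1d and Raet1e), beside 34.9% of all genes tested. In Klrk1-/- mice 2 of the 3 members tested passed, again Raet1d and Raet1e, beside 29.4% of all genes.

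Raet1d had 185, 210.4, 133 and 442.5 normalised read counts in WT mice on NCD and 191, 117, 90.4, 31.98 and 31.8 on SSD. In Klrk1-/- mice it had 229, 275, 703 and 196 on NCD and 36.7, 31.3 and 41.1 on SSD. WT mouse 1 on SSD reached the range of the NCD mice, while the Klrk1-/- groups stood fully apart. The log2 difference between diets was -1.57 in WT mice (95% interval -2.68 to -0.46, limma adjusted p = 0.0325) and -3.04 in Klrk1-/- mice (95% interval -3.79 to -2.29, limma adjusted p = 6.72e-05).

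Raet1e followed the same course. It had 111, 107, 91.2 and 258 normalised read counts in WT mice on NCD and 67.1, 53.2, 32.4, 24.0 and 16.3 on SSD. Klrk1-/- mice had 172, 204, 468 and 141 on NCD and 16.4, 31.3 and 29.1 on SSD. The diets did not overlap in either genotype. The log2 difference was -1.89 in WT mice (95% interval -2.77 to -1.01, limma adjusted p = 0.00417) and -3.10 in Klrk1-/- mice (95% interval -3.88 to -2.33, limma adjusted p = 7.2e-05).

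As ratios of group means, Raet1d was 2.63 times and Raet1e 3.67 times lower on SSD in WT mice, and they were 9.63 and 9.61 times lower in Klrk1-/- mice. Without Klrk1-/- mouse 3 on NCD the ratio of Raet1d was 6.41. The fall of Raet1e in WT mice passed in all 21 alternatives, and both falls in Klrk1-/- mice passed in all 19. The fall of Raet1d in WT mice passed in 11 of 21, and its call was lost on leaving out WT mouse 1, 2 or 5 on NCD (limma adjusted p = 0.0629, 0.0634 and 0.0988) or WT mouse 4 or 5 on SSD (0.0709 and 0.0593). With 3 against 4 Klrk1-/- mice the exact permutation test cannot go below p = 0.0571, and both genes gave that value.

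**Figure D3:**
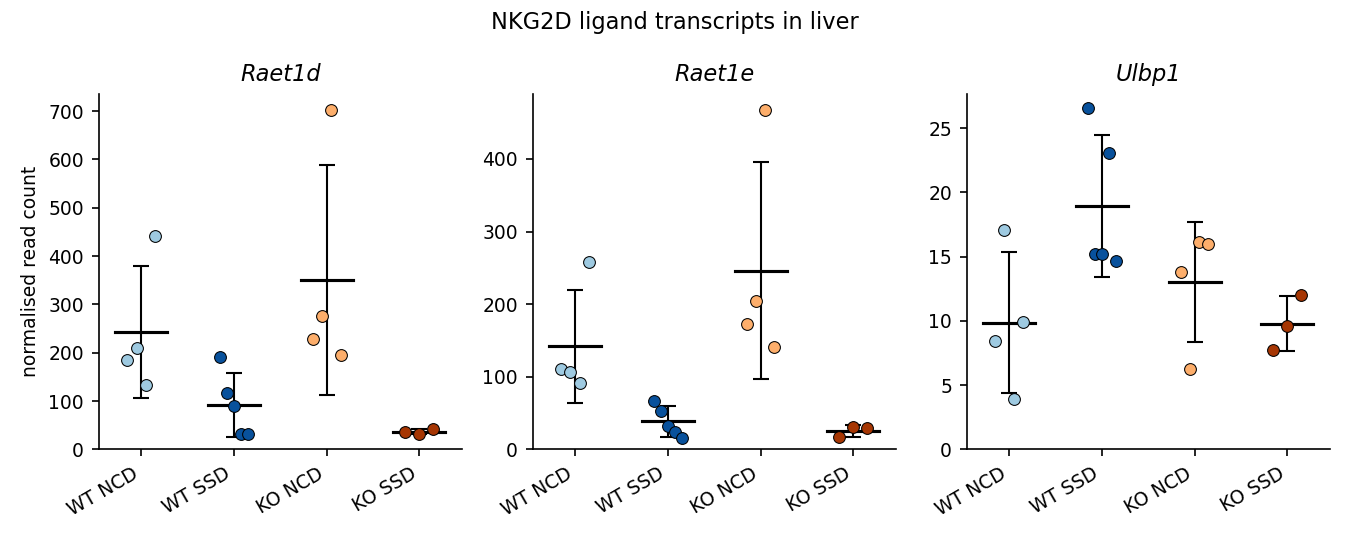
Normalised read counts of the ligand genes Raet1d, Raet1e and Ulbp1 in each mouse by genotype and diet; points are mice, horizontal lines are group means and bars are 1 SD. Raet1e lies lower on SSD than on NCD in every mouse of both genotypes, and the highest Raet1d value is 703 in Klrk1-/- mouse 3 on NCD.

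The summed level of 9 hepatocyte markers was lower on SSD in both genotypes. It was 2658010 to 2988350 normalised read counts in WT mice on NCD and 1809770 to 2169660 on SSD, and 2540080 to 3306890 and 2322420 to 2474970 in Klrk1-/- mice. Of the 9 markers 4 passed as lower in WT mice (34.9% of all genes tested passed), with Cps1, the entry enzyme of the urea cycle, at a log2 difference of -1.19 (limma adjusted p = 0.000194), and 5 passed as lower in Klrk1-/- mice (29.4% of all genes tested passed). The median difference of the 9 was -0.46 in WT and -0.38 in Klrk1-/- mice. Totals of normalised read counts were also lower on SSD, and as a percentage of the total the markers took 10.2 to 10.9 on NCD and 9.35 to 10.2 on SSD in WT mice, and 9.95 to 11.9 and 10.3 to 11.3 in Klrk1-/- mice. With every mouse scaled to the same total, the median was -0.12 in WT mice (2 higher and 3 lower of 9 passed) and -0.13 in Klrk1-/- mice (2 higher and 1 lower). The median over all genes tested was then 0.34 in WT and 0.25 in Klrk1-/- mice, and 53.7% and 43.6% of them passed. Raet1d and Raet1e kept their direction with that scaling, but the call of Raet1d in WT mice was lost (log2 -1.23, limma adjusted p = 0.0658). The part of hepatocyte content in the fall of Raet1d and Raet1e was not tested.

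Raet1d and Raet1e rose and fell together from mouse to mouse. Pearson's r of their log2 values was 0.96 across the 16 mice and 0.91 after the group means were removed, and each was the gene most like the other among 13067 genes compared. The part of their shared sequence in this likeness was not tested. The ratio of Raet1d to Raet1e was 1.46 to 1.97 in WT mice on NCD, 1.33 to 2.84 in WT mice on SSD, 1.33 to 1.503 in Klrk1-/- mice on NCD and 1 to 2.24 in Klrk1-/- mice on SSD. No comparison of that ratio passed 0.05 (lowest exact two-sided permutation p = 0.0571 of 4), a test chosen after the values were seen.

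**Figure D4:**
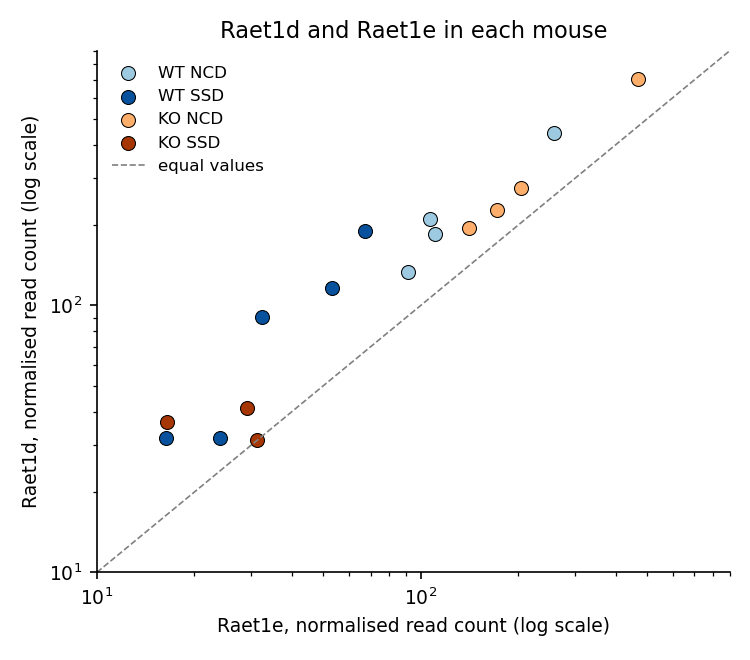
Raet1d against Raet1e in each of the 16 mice, as normalised read counts on logarithmic axes, coloured by genotype and diet; the dashed line marks equal values. The mice follow a single diagonal band (r = 0.96 on the log2 scale) with Raet1d at or above Raet1e in every mouse.

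Ulbp1, the MULT1 gene, had 8.44, 17.1, 3.91 and 9.93 normalised read counts in WT mice on NCD and 26.6, 15.2, 15.2, 23.1 and 14.7 on SSD. Klrk1-/- mice had 13.8, 6.22, 16.2 and 15.99 on NCD and 7.73, 9.64 and 12.0 on SSD. WT mouse 2 on NCD lay within the SSD range, and the 3 Klrk1-/- mice on SSD lay below all 5 WT mice on SSD. The diet difference in WT mice was 0.99 on the log2 scale (95% interval 0.13 to 1.84) and did not pass (limma adjusted p = 0.0699). It did pass without WT mouse 2 on NCD (log2 1.28, limma adjusted p = 0.0305), with all 4 groups in 1 model (limma adjusted p = 0.0425) and with every mouse scaled to the same total (log2 1.30, limma adjusted p = 0.0181). With that scaling the median over all genes tested was 0.34, and 53.7% of them passed.

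Between genotypes on SSD, Ulbp1 differed by -0.87 (95% interval -1.57 to -0.16, limma adjusted p = 0.151), with an exact two-sided permutation p = 0.0357 for this gene alone, the smallest that 3 against 5 mice allow. In Klrk1-/- mice its diet difference was -0.32 (95% interval -1.19 to 0.55, limma adjusted p = 0.582). Ulbp1 rested on 3 to 40 reads per mouse in WT and 5 to 14 in Klrk1-/- mice, so smaller differences were not detectable at this depth.

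The genotypes were then compared for the RAE-1 genes, to see whether ligand transcripts differed where the receptor is missing. On SSD the log2 difference of Klrk1-/- against WT was -0.995 for Raet1d (95% interval -2.19 to 0.20, limma adjusted p = 0.300) and -0.45 for Raet1e (95% interval -1.42 to 0.52, limma adjusted p = 0.569). On NCD it was 0.48 for Raet1d (95% interval -0.36 to 1.31, limma adjusted p = 0.424) and 0.76 for Raet1e (95% interval -0.01 to 1.54, limma adjusted p = 0.168). The groups overlapped for both genes on both diets. Without WT mouse 5 on NCD, which had the highest RAE-1 values of its group, Raet1e passed on NCD at 1.09 (limma adjusted p = 0.0333). Without Klrk1-/- mouse 3 on NCD, which had the highest values of its own group, Raet1e was at 0.40 (limma adjusted p = 0.439) and Raet1d at 0.08 (limma adjusted p = 0.903). Among mice whose numbers occur in both groups, Raet1d passed on SSD at -1.78 (limma adjusted p = 0.0222) and Raet1e on NCD at 1.30 (limma adjusted p = 0.0177). Both also passed in the same mice with the replicate number as a block. On SSD this choice leaves out WT mice 4 and 5, the lowest of their group for Raet1d (31.98 and 31.8 normalised read counts). On NCD it leaves out WT mouse 5, the highest of its group for Raet1e (258), and Klrk1-/- mouse 4, the lowest of its group (141). The mice left out are thus among those by which the groups overlapped.

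The difference between the diet effects of the 2 genotypes was estimated as an interaction term over all 16 mice. None of the 5 members tested passed with limma, edgeR or DESeq2, and 2 of them, Klrk1 and Ulbp1, had an unadjusted p under 0.05, where 0.88% of all genes tested passed. The interaction was -1.47 on the log2 scale for Raet1d (95% interval -3.01 to 0.07, limma adjusted p = 0.308), -1.21 for Raet1e (95% interval -2.51 to 0.09, limma adjusted p = 0.323) and -1.31 for Ulbp1 (95% interval -2.50 to -0.12, limma adjusted p = 0.250). The larger fall of the RAE-1 genes in Klrk1-/- mice was thus not shown to differ from that in WT mice. The 4 group comparisons share their mice in pairs, so their values are not independent of each other.

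**Figure D5:**
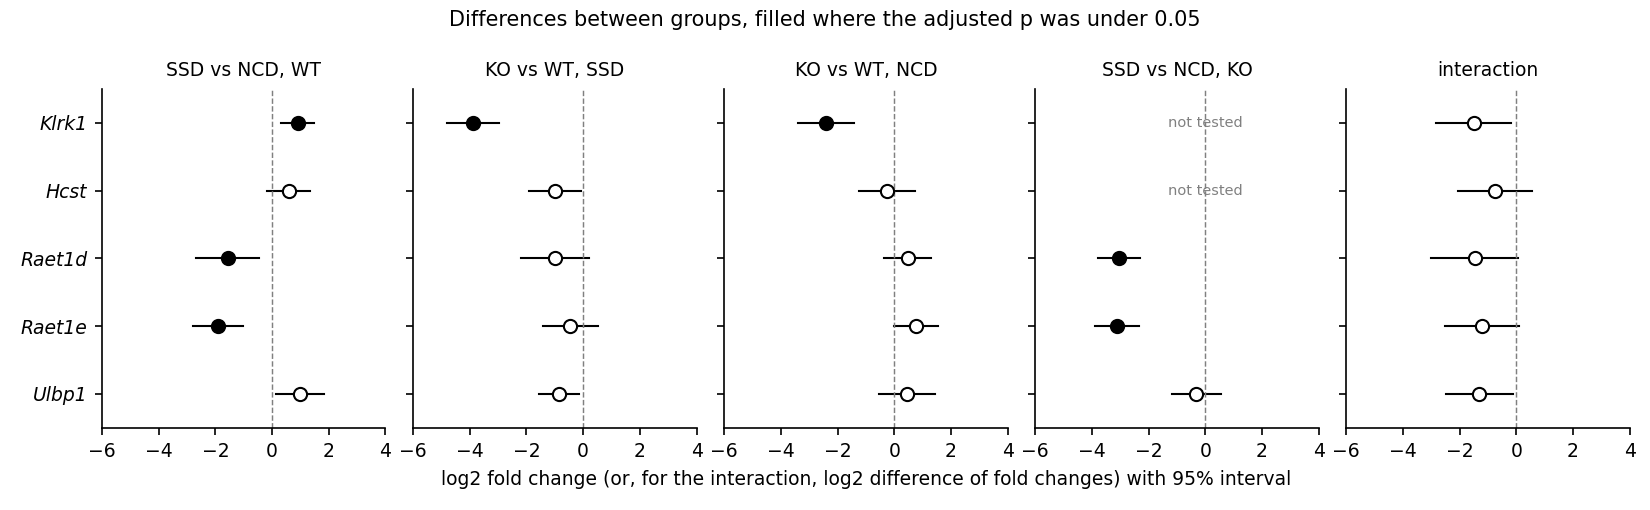
Log2 differences of the 5 tested members in each comparison and in the diet by genotype interaction, with 95% intervals as lines; filled points passed at an adjusted p under 0.05 (limma) and open points did not. Raet1d and Raet1e pass as lower on SSD in both genotypes, and Klrk1 passes as higher on SSD in WT mice and lower in Klrk1-/- mice on both diets.

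Of 24 kinases, PI3K subunits, adaptors and exchange factors that carry the signal of DAP10 and DAP12, 11 passed as higher on SSD in WT mice, 2 passed as lower and 11 did not pass, where 34.9% of all genes tested passed. The list had a median log2 difference of 0.34, while the median over all genes tested lay between -0.0020 and 0.0018 in the 4 comparisons. Scaling every mouse to the same total took that median to 0.34 in WT and 0.25 in Klrk1-/- mice between diets. List differences are given without subtracting it. The macrophage and monocyte markers were higher in the same WT mice (12 of 18 passed, median 0.74), and their part in the differences of the signalling genes was not tested. Vav1, an exchange factor of haematopoietic cells, rose from 52.2 ± 10.9 to 127 ± 53.2 normalised read counts (log2 1.19, limma adjusted p = 0.00511). The Src family kinase Fyn rose by 0.73 (limma adjusted p = 0.00391) and Stat5b by 0.38 (limma adjusted p = 0.00591). Zap70, a kinase of T and NK cells, went the other way, from 181 ± 24.2 to 51.6 ± 15.5 (log2 -1.83, limma adjusted p = 5.55e-05), and it also fell in Klrk1-/- mice (log2 -1.35, limma adjusted p = 3.78e-05). The T cell marker Lat had means of 18.8 on NCD and 21.8 on SSD in WT mice, and which cells the Zap70 reads came from was not tested.

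In Klrk1-/- mice Zap70 was the only one of the 24 that passed between diets, where 29.4% of all genes tested passed, with a median of 0.16. Between genotypes on SSD none of the 24 passed with limma, edgeR or DESeq2 (7 at unadjusted p under 0.05, median -0.16), where 2.9% of all genes tested passed with limma. On NCD, where 13.1% of all genes tested passed, the regulatory PI3K subunit gene Pik3r1 was the 1 that passed, from 1163 ± 71.7 in WT to 770.3 ± 73.5 in Klrk1-/- mice (log2 -0.60, limma adjusted p = 0.00248).

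Of 17 genes tested that are described as acting on the transcription, stability or shedding of NKG2D ligands, 3 passed as higher and 1 as lower on SSD in WT mice (34.9% of all genes tested), and 3 and 3 in Klrk1-/- mice (29.4% of all genes tested). With every mouse scaled to the same total, 10 passed as higher and 1 as lower in WT mice (53.7% of all genes tested). In Klrk1-/- mice 5 then passed as higher and none as lower (43.6% of all genes tested). Marchf9, a membrane-bound ubiquitin ligase, rose from 15.8 ± 6.83 to 50.4 ± 9.41 normalised read counts in WT mice (log2 1.68, limma adjusted p = 0.00107). Jun, a subunit of AP-1, rose by 0.98 in WT mice (limma adjusted p = 0.0286) and by 0.75 in Klrk1-/- mice (limma adjusted p = 0.00148). Mmp14, a membrane metalloprotease, rose by 0.32 (limma adjusted p = 0.0309) and 0.47 (limma adjusted p = 0.00331).

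The disulfide isomerase gene Pdia6 fell by 0.76 on the log2 scale in WT mice (limma adjusted p = 0.000726) and by 0.57 in Klrk1-/- mice (limma adjusted p = 0.0158). Its call in Klrk1-/- mice was lost with every mouse scaled to the same total. Between genotypes on SSD, 2 of the 17 passed with limma, 1 with edgeR and 6 with DESeq2, where 2.9%, 2.37% and 9.3% of all genes tested passed with these tools. Both limma calls were close to the threshold and lower in Klrk1-/- mice: the sheddase gene Adam17, from 424 ± 32.5 to 322 ± 9.33 (log2 -0.40, limma adjusted p = 0.0453), and Jun, from 853 ± 296 to 406 ± 68.4 (log2 -1.02, limma adjusted p = 0.0474). On NCD, where 13.1% of all genes tested passed, those of the 17 that passed included genes of both directions. Pdia6 (log2 -0.63, limma adjusted p = 0.0226) and the cell cycle factor gene E2f2 (log2 -0.76, limma adjusted p = 0.0365) were lower and the deacetylase gene Hdac3 (log2 0.38, limma adjusted p = 0.0328) was higher in Klrk1-/- mice. No other gene of the 17 passed.

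The other receptors of the NK gene complex were mostly too low to test. Of 29 in the table, 6 reached the minimum mean in WT mice, and Clec2d and Clec2h, lectin-like ligand genes of the complex, passed as lower on SSD, a share close to that of all genes tested (34.9%). With edgeR and with DESeq2 only 1 of the 6 passed. Clec2d fell from 4347 ± 959 to 1737 ± 475 normalised read counts (log2 -1.34, limma adjusted p = 0.000351) and Clec2h from 147 ± 65.4 to 62.5 ± 52.3 (log2 -1.53, limma adjusted p = 0.0481). Both also fell in Klrk1-/- mice (log2 -0.91, limma adjusted p = 0.00452, and log2 -3.27, limma adjusted p = 0.0118). Klrd1, the CD94 gene next to Klrk1, had means of 5.85, 14.5, 11.7 and 13.9 in WT mice on NCD, WT mice on SSD, Klrk1-/- mice on NCD and Klrk1-/- mice on SSD, and its diet difference in WT mice did not pass (log2 1.05, limma adjusted p = 0.0994).

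Of 4 other activating receptors tested, 3 passed as higher on SSD in WT mice, where 34.9% of all genes tested passed. Slamf7 rose by 1.504 (limma adjusted p = 0.0211), the Fc receptor gamma chain gene Fcer1g by 0.78 (limma adjusted p = 0.0303) and the costimulatory receptor gene Icos by 0.83 (limma adjusted p = 0.0365). Among 11 ligands of other NK receptors, 2 rose and 2 fell in WT mice, a share close to the 34.9% of all genes tested. Pvr, the ligand of DNAM-1 and TIGIT, rose from 163 ± 7.48 to 355 ± 73.4 (log2 1.10, limma adjusted p = 0.000158) and Cd86, a ligand of CD28, by 1.08 (limma adjusted p = 0.00294), while the MHC class I gene H2-K1 fell by 0.46 (limma adjusted p = 0.0114) and Nectin2 by 0.24 (limma adjusted p = 0.0297). With every mouse scaled to the same total, 6 of the 11 passed as higher, where 53.7% of all genes tested passed. None passed as lower, so the calls of H2-K1 and Nectin2 as lower were lost. Pvr thus differed in direction from the RAE-1 genes in the same mice, and it also rose in Klrk1-/- mice (log2 0.41, limma adjusted p = 0.016). The macrophage and monocyte markers were higher on SSD in the same WT mice. Their part in the differences of these receptors and of Cd86 was not tested.

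Cytotoxic molecules and cytokines of lymphocytes were low. Only 3 of the 16 could be tested in WT mice, and none passed with limma or edgeR and 1 with DESeq2 (2 at unadjusted p under 0.05), where 34.9% of all genes tested passed with limma. Ccl5 had a log2 difference of 0.88 (limma adjusted p = 0.0878) and the TRAIL gene Tnfsf10 of -0.40 (limma adjusted p = 0.0607). Of 11 markers of IL-17-producing gamma delta T cells 5 could be tested and 3 passed as higher in WT mice, where 34.9% of all genes tested passed, led by Zbtb16 (log2 2.04, limma adjusted p = 5.65e-07) and Il1r1 (log2 1.01, limma adjusted p = 0.00407). Zbtb16 was also higher in Klrk1-/- than in WT mice on NCD (log2 3.05, limma adjusted p = 1.68e-06). Its means in Klrk1-/- mice were 1083 on NCD and 722 on SSD, and its diet by genotype interaction passed (log2 -2.63, limma adjusted p = 0.000338). Its level of 126 to 1083 in group means was far above that of Trdc, the T cell receptor delta constant gene, at 1.83 to 3.06.

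The genes whose pattern was most like that of each member are given as a description, over few mice of the same libraries. For Klrk1, over the 9 WT mice, these were Reep4 (r = 0.97), the RNA sensor gene Tlr7 (0.97), Gm12166 (0.97), Hyls1 (0.96) and the interferon-induced Ifi209 (0.96). For Hcst over 16 mice they were Csf2rb, Art2b, Ccrl2, Dnajc10 and Rassf2, with r of 0.76 to 0.77. Raet1d was followed, after Raet1e, by Pigh, Gm5096 and AC110211.1 (0.90 to 0.92), and Raet1e, after Raet1d, by Ovca2, Dnm1l and Gpatch11 (0.93 to 0.94).

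For Ulbp1 the most alike genes were Trim59 (r = 0.87), the MHC class I-like gene H2-T24 (0.84), the kinetochore gene Knl1 (0.83), the cell cycle phosphatase gene Cdc25b (0.83) and Slfn9 (0.82). Trim59 had group means of 4.65 and 35.2 normalised read counts in WT mice and 10.5 and 8.004 in Klrk1-/- mice on NCD and SSD, with the highest mean, as for Ulbp1, in WT mice on SSD. Klrk1 and Hcst had r = 0.73 with each other over the 9 WT mice and 0.56 after the group means were removed.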

How the data were processed

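Liver RNA of 16 mice was sequenced as single reads of 100 bases, with a Truseq Total RNA kit per the study's methods and a TruSeq mRNA kit per the labels. The authors aligned reads with STAR to GRCm39, counted them per gene with FeatureCounts on GENCODE M26 and deposited counts divided by 1 size factor per mouse (DESeq2), a signal whose values came out as whole reads in 100% of cases within 0.01 reads. The table as deposited also gives each gene's GC share as a fraction, its length, and the authors' own fold changes and p-values, which were not used.

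Normalised read counts were tested as log2(value + 1) with limma 3.58.1 (variance trend, R 4.3.3) in the 2 groups compared, over genes with a mean of at least 10, with Benjamini-Hochberg adjustment over all of them. A gene passed at an adjusted p under 0.05. For each member, an exact permutation test (two-sided) of the difference in mean log2 value was added. Alternatives were edgeR 4.0.16 and DESeq2 1.42.0 on recovered reads, other scalings, pseudocounts, minimum means and variance estimates, a replicate block, all 4 groups in 1 model, and leaving out each mouse. The 95% intervals are limma's. Nothing states that mice of a group were independent beyond their labels, so p-values measure the spread between these libraries.

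Members and gene lists were chosen with earlier results of these data known. Named genes were the 7 members, Tyrobp, up to 4 genes per list and comparison with the smallest adjusted p among those passing (up to 2 where none passed), neighbouring genes and the 5 genes most like each member, some of which are not reported here. The scripts were tested on simulated data.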

Additional observations from a re-analysis of the deposited data

Results flagged for a closer look

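Of 15 sets of 4 or 5 mice examined per gene and group, 2 held a mouse far from the others; chance flags about 1 in 20. Raet1d in Klrk1-/- mice on NCD was 703 normalised read counts in mouse 3, with the other mice at 196 to 275. Raet1e in WT mice on NCD was 258 in mouse 5, with the other mice at 91.2 to 111.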

How the results depend on the processing

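The numbers of members passing were 3 between diets in WT mice, 1 between genotypes on each diet, 2 between diets in Klrk1-/- mice and 0 for the interaction, and the last 2 held in every alternative run. With the replicate number as a block they became 1, 2 (SSD, adding Raet1d at -1.78, limma adjusted p = 0.0218) and 2 (NCD, adding Raet1e at 1.30, limma adjusted p = 0.0140) in the first 3. These fits also leave out mice whose number is in 1 group only, and the same mice without the block, an alternative chosen after seeing the data, also gave counts of 1, 2 and 2, with Raet1d at -1.78 (limma adjusted p = 0.0222) and Raet1e at 1.30 (limma adjusted p = 0.0177). The deviations of same-numbered mice had a mean r of -0.076, 0.12, 0.00092 and 0.073 in the 4 comparisons, and the highest was 0.25. With 4 pairs in the first comparison and 3 in each of the others, this cannot show whether the numbers pair mice. A minimum mean of 50 removed Klrk1 and left 0 between genotypes on either diet. Leaving out 1 mouse gave 1 to 3 members between diets in WT mice (1 without WT mouse 5 on NCD or WT mouse 4 on SSD) and 1 to 2 between genotypes on NCD (2 without WT mouse 5 on NCD). Hcst between genotypes on NCD ranged from -0.41 to 0.0089, turning above 0 without Klrk1-/- mouse 2. In WT mice, Klrk1 did not pass between diets with quantile normalisation (0.53, limma adjusted p = 0.123) or all 4 groups in 1 model (0.0917), and Raet1d did not with DESeq2 (-1.39, adjusted p = 0.0705). Scaling to the same total took Raet1d to an adjusted p of 0.0658, Ulbp1 to 0.0181 and Hcst to 0.0455 with limma. The causes were not tested. In the gene lists, scaling to the same total took the signalling genes to 19 higher and 1 lower of 24 between diets in WT mice and to 13 higher and 1 lower in Klrk1-/- mice, where 53.7% and 43.6% of all genes passed. Over all genes, calls between diets in WT mice were 4568, against 7056 with the same total and 2974 with the block, and calls between genotypes on SSD were 381, against 1220 with DESeq2, 949 with all 4 groups, 710 with the block, 176 with no variance trend and 45 to 717 on leaving out 1 mouse. Between genotypes on NCD 1679 became 765 with no variance trend and 717 to 2189 on leaving out 1 mouse, and between diets in Klrk1-/- mice 3790 became 2397 to 3662. For the interaction 115 became 460 with DESeq2, 67 with no variance trend, 42 with the block and 37 to 187 on leaving out 1 mouse. Reads per gene limited Ulbp1, Hcst, H60b and H60c.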
